A study of Mus musculus with 9 samples.

Results

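To ask which gene programs of brown adipose tissue still responded to acute cold when the amino acid sensing kinase GCN2 was deleted, cold-exposed GCN2 KO mice were set against wild-type (WT) mice kept at room temperature (RT). The comparison took in 6 of the 9 RNA-seq libraries of the series, 3 from GCN2 KO mice in the cold (GCN2 KO Cold) and 3 from WT mice at room temperature (WT RT). All 16560 genes listed for these libraries were tested. GCN2 KO Cold mice had a whole body deletion of Gcn2 (gene symbol Eif2ak4) and spent 8 h at 4 °C. WT RT mice carried no deletion and stayed at 23 °C. All mice were on a C57Bl/6J background, were 12 to 23 wk old, and had 5 days of single housing before the test. Groups in this study held both sexes, and the labels give no sex for any library. The groups differ in genotype as well as temperature, and none of the 9 libraries is labelled as GCN2 KO at room temperature. The effect of the deletion and that of cold therefore cannot be told apart in this comparison alone. The third group, WT mice held at 4 °C for the same 8 h (WT Cold), is given beside it where it shows what differs.

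Brown adipose tissue burns fatty acids and glucose to make heat. Cold drives noradrenaline release onto brown adipocytes, and the cyclic AMP signal that follows releases fatty acids from lipid droplets, opens uncoupling protein 1 in the mitochondrial inner membrane and raises transcription of a set of thermogenic genes. GCN2 is a kinase that senses amino acid shortage and phosphorylates the translation factor eIF2, which lowers general protein synthesis and favours translation of the transcription factor ATF4. ATF4 in turn drives genes of amino acid synthesis and amino acid transport, a program known as the integrated stress response.

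Each value is a normalized count, the number of reads on a gene divided by a size factor of its library. The libraries held 27056681 to 28764382 reads on listed genes in GCN2 KO Cold and 30454354 to 30765136 in WT RT, and the least covered gene had 61 reads over the 6 libraries. Within each group the libraries carry the letters A to C, following the order of their codes, and the codes name no mouse. WT RT codes have a different prefix from the codes of both cold groups, so any difference between these sets of libraries cannot be told apart from the response to cold. Library C of GCN2 KO Cold stood apart from A and B: the Y-linked gene Ddx3y had 2672, 2649 and 327 normalized counts in A to C, Xist, the RNA of the inactive X chromosome, had 1344, 351 and 3982, and transcripts of skeletal muscle were lowest in C. Both Ddx3y and Xist were present in every library, with 2376 to 2483 and 353 to 700.1 in WT RT, and whether each library holds RNA of 1 mouse was not tested. Library C of WT Cold stood apart as well, with a median log2 level of 5 sex-linked transcripts of -3.25 relative to WT RT, against 0.74 and 0.05 in A and B, and the lowest skeletal muscle level of its group. Counts of genes are therefore also given without a library C where this matters. All 8 brown adipocyte markers, among them Ucp1, Cidea, Adipoq and Fabp4, were detected in all libraries, with a summed level of 851000 to 881000 normalized counts in GCN2 KO Cold and 527000 to 605000 in WT RT, and their median log2 fold change was -0.05.

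The deleted gene was examined first. Eif2ak4, which encodes GCN2, had 368, 395 and 369 normalized counts in GCN2 KO Cold libraries A to C and 294, 332 and 368 in WT RT. Its level was not lower in these cold libraries, with a log2 fold change of 0.19 ± 0.12 (SE, n = 3 per group; limma adjusted p = 0.26), and the value turned to -0.01 when libraries were scaled to their totals. The count covers the whole gene and not the deleted part, so it does not check the genotype, and "GCN2 KO Cold" below means the libraries so labelled. Of the 3 samples of that group, 1 has a title that names both genotypes and no temperature, and it was placed by its genotype and temperature labels. No library code is tied to a single sample, so which of A to C it is cannot be told. Among the other kinases that phosphorylate eIF2, Eif2ak2 (PKR), which is itself induced by interferon, fell from 1085, 1330 and 941 in WT RT to 351, 409.6 and 283 (log2 fold change -1.68, adjusted p = 0.000371). Eif2ak3 (PERK) had a log2 fold change of 0.29 and did not pass the test (adjusted p = 0.0615).

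Differences were tested with limma on log2(normalized count + 1), and fold changes are on that log2 scale, as GCN2 KO Cold minus WT RT. A gene is called higher or lower where its adjusted p was under 0.05 and its log2 fold change was beyond 1 in size, the threshold that the study used. In GCN2 KO Cold, 499 genes were called higher (3.01% of those tested) and 1255 lower (7.58%), and the median log2 fold change of all genes was 0.01. Without library C of GCN2 KO Cold, 455 genes were called higher and 1014 lower. Scaling to library totals instead of the size factors moved the median of all genes to -0.19 and left 326 genes called higher and 1769 lower, so that 15.6% of calls were higher as against 28.4%. Transcripts of the mitochondrial genome moved with this difference in scaling, since the 13 subunits it encodes took 22.4 to 24.0% of reads in GCN2 KO Cold and 17.7 to 18.4% in WT RT, and their part in it was not tested. Members of gene lists are read below against the shares of 3.01% and 7.58%.

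Among called genes that averaged at least 50 normalized counts, the largest rise was in Gchfr, which encodes the feedback regulator of GTP cyclohydrolase I. Gchfr had 3567, 3773 and 4460 normalized counts in GCN2 KO Cold libraries A to C against 197, 173 and 207 in WT RT, and its log2 fold change was 4.34 ± 0.11 (adjusted p = 2.16e-06). Eif3j2, a copy of the gene for translation initiation factor eIF3 subunit j, rose from 43.6, 52.1 and 54.8 to 769, 841 and 906 (4.04 ± 0.15). In WT Cold the log2 fold changes against WT RT were -0.12 and 0.32, and the direct comparison of the cold groups gave 4.46 for Gchfr and 3.72 for Eif3j2 (adjusted p = 0.00842 and 0.000323). With each library left out in turn, Eif3j2 kept passing the adjusted p in that comparison, while Gchfr was at 0.0508 without library B of GCN2 KO Cold and 0.0816 without library B of WT Cold. Eif3j2 shares most of its sequence with Eif3j1, so the division of reads between the copies is uncertain. The same caution holds for other near-identical families named below, such as Acot, Ifit, Phf11, Gbp, class I H2 and globin genes.

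The other large rises were also called in WT Cold. Cyp2b10, a cytochrome P450, went from 623, 442 and 1005 normalized counts in WT RT to 10211, 16852 and 12558 in GCN2 KO Cold, and Acot5, a peroxisomal acyl-CoA thioesterase, from 13.1, 21.4 and 16.7 to 303, 280.3 and 267. Their log2 fold changes were 4.31 and 4.00, beside 4.50 and 4.40 in WT Cold. Mfsd2a, which carries lysophosphatidylcholine into cells, had a log2 fold change of 3.83 (3.68 in WT Cold), Lrrc52, a potassium channel subunit, 3.91 (3.45) and Cend1, a neuronal cell cycle exit gene, 3.78 (3.45). Dio2, the deiodinase that activates thyroid hormone, was also among the 12 largest rises. The remainder of the 12 were E030018B13Rik, Gm42614, Gm11714 and 6030408B16Rik, genes without an established role, with log2 fold changes from 3.59 to 3.92.

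The 12 largest falls were in genes known from the interferon response or from myeloid cells. Ms4a4c, a membrane protein of monocytes, had 517, 1348 and 315 normalized counts in WT RT and 10.1, 39.1 and 31.2 in GCN2 KO Cold (-4.64 ± 0.60, adjusted p = 0.00105). Ifi206, a member of the Ifi200 family of DNA sensors, fell from 148, 278 and 91.9 to 1.12, 15.2 and 12.7 (-4.33). Fcgr1, the high-affinity Fc receptor for IgG of macrophages, fell from 732, 2102 and 696 to 31.3, 93.4 and 93.5 (-3.95), and Ly6c2, which marks inflammatory monocytes, from 368, 1426 and 335 to 20.1, 43.5 and 51.9 (-3.93). WT RT library B was the highest library for each of these 4 genes, and no GCN2 KO Cold library reached the lowest WT RT library, as was so for 25.5% of all genes tested (23.7% were separated the other way). The others were Phf11a, Slfn1, Ifit3b, Phf11b, Ifit3, Tlr9, Mx1 and Ifi213, from -4.21 to -3.62. All 12 rises and all 12 falls kept their call with each library left out in turn, under edgeR and DESeq2, and when scaled to library totals.

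**Figure D1:**
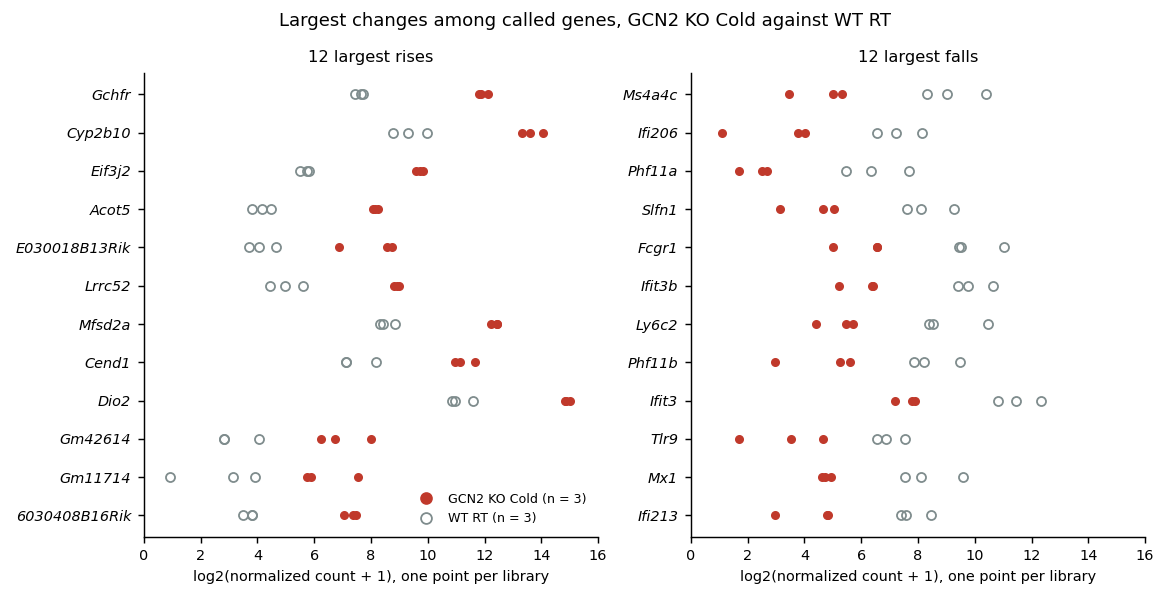
The 12 largest rises (left) and 12 largest falls (right) among called genes that averaged at least 50 normalized counts; the horizontal axis is log2(normalized count + 1), and each point is 1 library (filled red, GCN2 KO Cold, n = 3; open grey, WT RT, n = 3). The genes were chosen for the size of their change, and the points of the 2 groups lie apart, with Ms4a4c in WT RT between 315 and 1348 normalized counts.

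Thermogenic genes were counted first. Of the 24 genes listed for it, 7 were called higher and 1 lower, with a median log2 fold change of 0.30, and the same counts, 7 and 1, were found in WT Cold, where 2.99% of all genes were called higher and 5.15% lower. Ucp1, the uncoupling protein, had 295005, 296726 and 302782 normalized counts in GCN2 KO Cold libraries A to C and 95507, 138644 and 134691 in WT RT, a fitted fold change of 2.46. Its log2 fold change was 1.30 ± 0.17 (adjusted p = 0.00101), and its share of reads was 0.95 to 0.969% against 0.359 to 0.527%. Dio2 rose from 1866, 1978 and 3062 to 33331, 29641 and 29324 (3.77 ± 0.17, adjusted p = 2.13e-05). Ppargc1a, the coactivator of mitochondrial biogenesis, had 943, 1146 and 1625 in WT RT and 6994, 4944 and 16004 in GCN2 KO Cold (2.77 ± 0.39), with library C well above both other libraries. Gk (glycerol kinase), at 2.63, Elovl3, an elongase of very long chain fatty acids, at 1.89, Gadd45g at 1.86 and the potassium channel Kcnk3 at 1.11 were the other called rises. Under scaling to library totals 6 genes were called higher and 2 lower, and Kcnk3 was short of the fold threshold there (0.91).

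Not every gene of brown fat function moved in that direction. Adrb3, the beta-3 adrenergic receptor, fell from 7025, 6831 and 9646 normalized counts in WT RT to 2209, 2927 and 3244 in GCN2 KO Cold (-1.49 ± 0.17, adjusted p = 0.000669). Ppara, a nuclear receptor for fatty acids, had a log2 fold change of -0.88 (adjusted p = 0.00218), short of the fold threshold. Cidea, a lipid droplet protein of brown adipocytes, had 0.50 and Cox8b, the brown fat and muscle form of a cytochrome c oxidase subunit, 0.89, both past the adjusted p and short of the fold threshold. In WT Cold the corresponding log2 fold changes were -1.13 for Adrb3, -0.51 for Ppara, 0.11 for Cidea and 0.38 for Cox8b. With limma, 0 of the 24 genes differed between GCN2 KO Cold and WT Cold at an adjusted p under 0.05, where 0.405% of all genes did, and 8 did at an unadjusted p under 0.05 (15.3% of all genes).

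Genes that respond within minutes to hours to hormones and cyclic AMP were counted next. Of 25 tested, 7 were called higher and 0 lower (median 0.63), beside 9 and 0 in WT Cold (median 0.64). Under library totals 4 were called, and Dusp6, Crem and Per1 were short of the fold threshold there (0.99, 0.83 and 0.8). Nr4a3, an orphan nuclear receptor, had 184, 81.2 and 136 normalized counts in WT RT and 656, 457 and 1473 in GCN2 KO Cold (2.58 ± 0.43, adjusted p = 0.00291). Spry4, a feedback inhibitor of receptor tyrosine kinase signalling, rose from 177, 291 and 234 to 905, 876 and 1099 (2.05). The MAP kinase phosphatases Dusp1 and Dusp6 rose by log2 fold changes of 1.24 and 1.19, and the small Maf factor Maff by 1.21. Crem, a cyclic AMP response modulator, and the clock gene Per1 lay at the threshold, with 1.03 and 1.01: Crem was 0.98 without library A of GCN2 KO Cold and 0.93 without library A of WT RT, and Per1 was 0.96 and 0.99 without libraries B and C of GCN2 KO Cold, 0.71 without library B of WT RT and 0.93 under edgeR. Fos and Egr1, the classical immediate early genes, had values of 311, 227 and 215 and 219, 212 and 510.3 in GCN2 KO Cold against 255, 685 and 388 and 329, 1140 and 304 in WT RT. Neither passed the test (adjusted p = 0.124 and 0.3), although Fos was called lower without library A of WT RT (log2 fold change -1.06). Dusp4 was the list member that differed between the cold groups, with -1.03 in GCN2 KO Cold minus WT Cold (adjusted p = 0.0295).

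The cyclic AMP response element TGACGTCA, which reads the same on both strands, was searched in the 250 bases upstream of the gene start in the RefSeq promoter table (build GRCm38.p6), where 11881 of the tested gene symbols had an entry. It was present for 2.85% of these genes, for 1.21% of the genes called higher that had an entry, and for 2 of the 5 called immediate early genes with an entry. These were Dusp1 and Maff, and Dio2 held it too. The 3 stretches are shown because these genes rose in the cold and carry the element close to the start, and capitals mark it. They lie at chr17:26508568-26508655 on the minus strand, chr15:79347451-79347519 on the plus strand and chr12:90739086-90739173 on the minus strand, and a match is a description of the letters, not evidence of binding.
Dusp1: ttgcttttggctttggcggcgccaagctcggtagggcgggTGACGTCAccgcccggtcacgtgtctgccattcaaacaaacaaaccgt
Maff: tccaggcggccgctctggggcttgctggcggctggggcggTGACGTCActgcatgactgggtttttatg
Dio2: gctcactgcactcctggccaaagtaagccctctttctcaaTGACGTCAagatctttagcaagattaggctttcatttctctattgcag

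Some genes of lipid uptake rose and most genes of fatty acid synthesis fell. Of the 16 uptake genes tested, 5 were called higher and 0 lower (median 0.56), 11 were higher and 3 lower at an adjusted p under 0.05 (16.4% and 17.8% of all genes), and 2 were called higher under library totals. Lpl, the lipoprotein lipase that frees fatty acids from circulating triglyceride, had 286548, 299633 and 295150 normalized counts in GCN2 KO Cold and 98946, 91553 and 101673 in WT RT, a fitted fold change of 3.02 (1.59 ± 0.12, adjusted p = 0.00012). Fabp3, a fatty acid binding protein of oxidative tissues, rose from 13195, 14137 and 14513 to 38982, 53042 and 67143 (1.89). Gpihbp1, which anchors lipoprotein lipase to capillaries, and Lipg (endothelial lipase) had 1.15 and 1.11. When scaled to library totals, they were at 0.95 and 0.91 and no longer called, and Lipg was 0.99 without library C of WT RT. The fatty acid transporter Cd36 was 0.65 (adjusted p = 0.00307), short of the fold threshold.

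Of the 16 genes that rebuild triglyceride, 3 were called higher and 0 lower (median 0.18): Gk, which phosphorylates glycerol, Dgat1, which adds the last acyl chain, at 1.16, and the lipin Lpin3 at 1.02. Gk had 30754, 31255 and 33465 normalized counts in GCN2 KO Cold and 4797, 5192 and 5431 in WT RT. Dgat1 fell short of the fold threshold under library totals (0.96), and Lpin3 did so there (0.82) and without library A or B of GCN2 KO Cold (0.91 and 0.97) or library A or C of WT RT (1.0 and 0.94). In the list of lipolysis and lipid droplets, 1 of 15 genes was called: G0s2, an inhibitor of adipose triglyceride lipase, rose from 6210, 4643 and 6722 to 13827, 16876 and 15354 (1.40). Lipe, hormone-sensitive lipase, had -0.85 (adjusted p = 0.00137), short of the fold threshold except under library totals (-1.06).

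Fatty acid synthesis had the lowest median of the metabolic lists. Of its 18 genes, 12 were called lower and 0 higher (median -1.44), beside 13 and 0 in WT Cold (median -1.62), and the count stayed at 12 without library C of GCN2 KO Cold. Acly, which makes cytosolic acetyl-CoA from citrate, had 85063, 104605 and 127682 normalized counts in WT RT libraries A to C and 11046, 10994 and 13091 in GCN2 KO Cold (-3.16 ± 0.15, adjusted p = 2.26e-05). Fasn, fatty acid synthase, fell from 386824, 430621 and 525329 to 118171, 108025 and 125944 (-1.92 ± 0.16). The highest GCN2 KO Cold value lay below the lowest WT RT value for both genes, as for 25.5% of all genes. Acaca (acetyl-CoA carboxylase), the acetoacetyl-CoA synthetase Aacs, the acetyl-CoA synthetase Acss2 and the lipogenic nuclear protein Thrsp had -1.81, -1.95, -1.69 and -1.87. The lipogenic transcription factors fell as well, with log2 fold changes of -1.53 for Srebf1 and -1.08 for Mlxipl (ChREBP), although Mlxipl was -0.87 without library A of GCN2 KO Cold and -0.92 without library C of WT RT. Me1, malic enzyme, had 23290, 16326 and 19633 in GCN2 KO Cold against 29171, 35607 and 41796 in WT RT (-0.85, adjusted p = 0.00526), short of the fold threshold, and was called in WT Cold (-1.59). Of the list, Thrsp differed between the cold groups, with 0.79 in GCN2 KO Cold minus WT Cold (adjusted p = 0.0439), and Me1 and Acss2 had 0.74 and 0.73 (adjusted p = 0.0801 and 0.08).

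**Figure D2:**
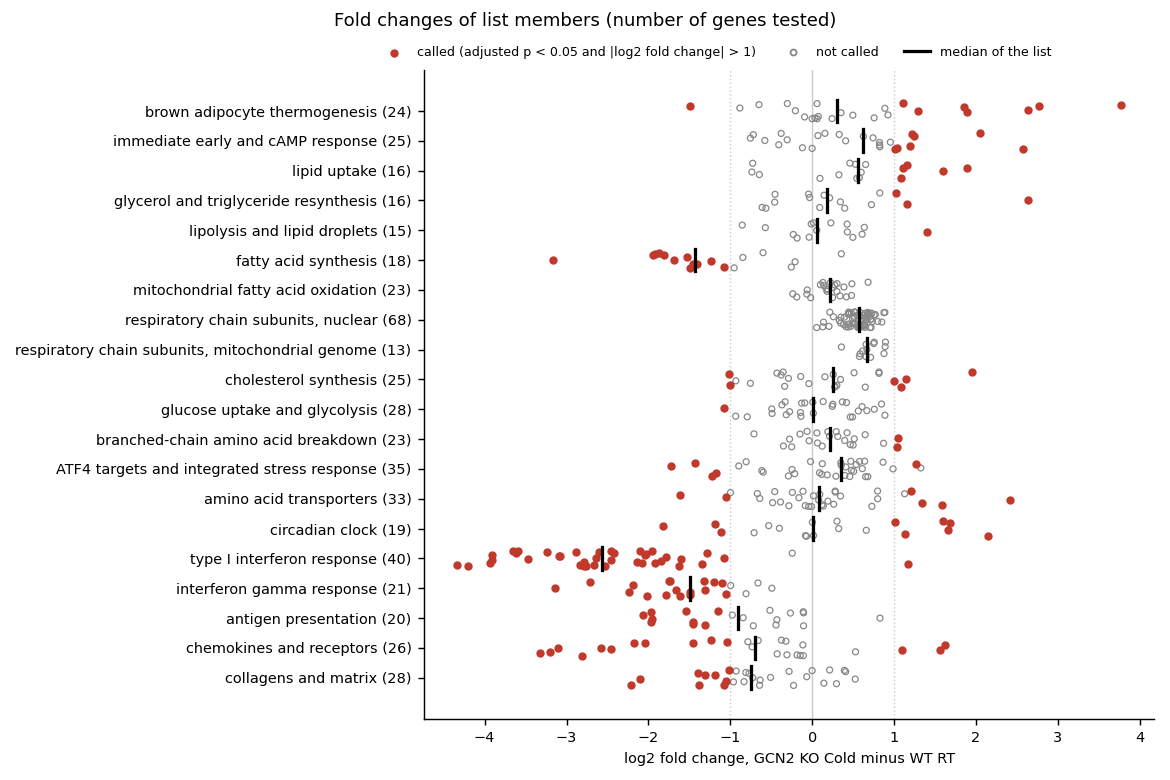
The log2 fold change (GCN2 KO Cold minus WT RT, horizontal axis) of each tested member of 20 gene lists, with the number of genes tested in parentheses; filled red points were called, open grey points were not, and the black bar is the list's median. Fatty acid synthesis and the interferon lists lie to the left, with medians of -1.44, -2.56 and -1.50, while all 68 nuclear respiratory chain subunits lie between 0.05 and 0.89.

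Genes of mitochondrial fatty acid oxidation moved by less than the fold threshold, with log2 fold changes from -0.24 to 0.68. Of the 23 genes of mitochondrial fatty acid oxidation, 0 were called by limma, edgeR or DESeq2, although 9 were higher at an adjusted p under 0.05 (16.4% of all genes were) and 12 had an unadjusted p under 0.05, as did 44.4% of all genes. Among the 25 acyl-CoA thioesterases and peroxisomal genes, 3 were called higher and 2 lower. Besides Acot5 these were Acot1 (1.14) and Acot6 (1.02), which were lost in several refits, and, among falls, Acot11 at -1.15 and Abcd2, a peroxisomal importer of very long chain acyl-CoA, at -1.93. Acot1 was 0.74 without library C of GCN2 KO Cold (adjusted p = 0.0679), where its values of 704, 1246 and 2159 were widely spread, and it also missed the adjusted p without library B of GCN2 KO Cold or any 1 library of WT RT. Acot6 was 0.96 without library B of GCN2 KO Cold and 0.92 without library A of WT RT, and Acot11 was -0.96 without library C of WT RT.

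Subunits of the respiratory chain rose together and by a small amount. None of the 68 nuclear-encoded subunits passed the fold threshold with limma, edgeR or DESeq2, yet 62 were higher at an adjusted p under 0.05 and 0 were lower, where 16.4% of all genes were higher by that rule. Their median log2 fold change was 0.58, and the range was 0.05 to 0.89. Uqcrh, a subunit of complex III, had 22341, 21755 and 28000 normalized counts in GCN2 KO Cold and 13668, 12379 and 13014 in WT RT (0.88 ± 0.11, adjusted p = 0.000883). Of the 13 subunits encoded by the mitochondrial genome, 11 were higher at an adjusted p under 0.05 (median 0.67). mt-Nd6, a subunit of complex I, rose from 140126, 139726 and 168338 to 280866, 254145 and 296900 (0.89), whereas mt-Co1, the catalytic subunit of cytochrome c oxidase, had 0.36 and did not pass (adjusted p = 0.329). Scaled to library totals, the medians were 0.37 and 0.46 beside -0.19 for all genes. In WT Cold against WT RT, 31 of the 68 nuclear subunits and 7 of the 13 mitochondrial ones were higher at an adjusted p under 0.05, as were 13.6% of all genes, with medians of 0.23 and 0.50. Between the cold groups, 0 subunits of either list passed an adjusted p of 0.05 with limma, while 58 of the 68 nuclear subunits and 2 of the 13 mitochondrial ones had an unadjusted p under 0.05 (15.3% of all genes), and the medians of GCN2 KO Cold minus WT Cold were 0.36 and 0.23.

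Cholesterol synthesis gave calls in both directions. Of 25 genes, 4 were called higher and 2 lower (median 0.26), beside 1 higher and 3 lower in WT Cold (median -0.29). Without library A of GCN2 KO Cold, and again without library A of WT RT, 2 were called higher. Hsd17b7, a late enzyme of the pathway, rose from 307, 319 and 441 normalized counts in WT RT to 1659, 1372 and 1115 in GCN2 KO Cold (1.96 ± 0.18, adjusted p = 0.000267), and the sterol oxidase Msmo1 had 1.15. Sqle, squalene epoxidase, lay just past the threshold and dropped under it with edgeR and without library A or B of GCN2 KO Cold or library A of WT RT (0.86 to 0.92). The 2 falls, Insig1, which retains the sterol sensor in the endoplasmic reticulum, at -1.02 and Nsdhl, just past the threshold, were at -0.95 and -0.85 without library C of GCN2 KO Cold and not called there. Insig1 was also -0.89 without library A and Nsdhl -0.89 without library C of WT RT. Scaled to library totals, 1 gene was called higher and 3 lower. Between the cold groups, Acat2, which makes acetoacetyl-CoA, was the one member past the adjusted p, at 0.64 (0.0461), which it missed with any 1 library left out, and Hsd17b7 had 0.94 (0.0725). The differences of the 25 genes ran from 0.06 to 0.94 with a median of 0.48, and 16 had an unadjusted p under 0.05, as did 15.3% of all genes.

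Glucose and branched-chain amino acid genes gave few calls. Of 28 genes of glucose uptake and glycolysis, 0 were called higher and 1 lower (median 0.01), while 8 were higher and 7 lower at an adjusted p under 0.05 (16.4% and 17.8% of all genes). The fall was in Pdk1, a kinase that restrains pyruvate dehydrogenase, from 4036, 3860 and 4793 normalized counts to 2281, 1943 and 1802 (-1.07), which was -1.0 without library C of GCN2 KO Cold and -0.98 without library C of WT RT. Slc2a1, the glucose transporter GLUT1, had 0.76 (adjusted p = 0.00214) and was called in WT Cold at 1.07. Of 23 genes of branched-chain amino acid breakdown, Bcat2, the mitochondrial transaminase that starts it, and Mcee, an epimerase of the propionyl-CoA route, were called higher at 1.04 and 1.05, and none was lower, while 10 were higher and 1 lower at an adjusted p under 0.05 (16.4% and 17.8% of all genes). Neither was called under library totals (0.84 and 0.85), nor, for Bcat2, without library B of GCN2 KO Cold (0.9) or of WT RT (0.96), nor, for Mcee, without library C of GCN2 KO Cold (0.97). Between the cold groups, 0 genes of either list passed an adjusted p of 0.05 with limma. At an unadjusted p under 0.05 there were 16 of 28 glucose genes and 7 of 23 branched-chain genes, beside 15.3% of all genes. The medians of GCN2 KO Cold minus WT Cold were 0.2 and 0.15.

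The integrated stress response is the program that GCN2 feeds, and its genes moved in both directions. Of 35 ATF4 targets and related genes, 1 was called higher and 4 lower, with a median log2 fold change of 0.35, and 13 were higher and 7 lower at an adjusted p under 0.05, where 16.4% of all genes were higher and 17.8% lower. Without library A of GCN2 KO Cold 4 were called higher, and without library A or B of WT RT 2 were called lower. In WT Cold 4 were called higher and 1 lower (median 0.39). Atf4 itself had 5936, 5437 and 8513 normalized counts in GCN2 KO Cold libraries A to C and 2699, 4189 and 3114 in WT RT, and its log2 fold change of 0.99 ± 0.20 (adjusted p = 0.00632) lay just under the fold threshold. It was called without library A or B of GCN2 KO Cold (1.05 and 1.12) or library B of WT RT (1.16), and in WT Cold (1.20). Ddit4, a stress-induced inhibitor of mTORC1, rose from 1633, 823 and 1573 to 3271, 3045 and 2944 (1.26), and was 0.94 without library B of WT RT. Asns, asparagine synthetase, had 0.58 (adjusted p = 0.00111). The stress factors Ddit3 (CHOP) and Trib3 had 0.35 and 0.48 and did not pass (adjusted p = 0.17 and 0.146).

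The 4 called falls were enzymes of amino acid metabolism. Phgdh, which commits 3-phosphoglycerate to serine synthesis, had 817, 640.1 and 792 normalized counts in WT RT and 295, 267 and 145 in GCN2 KO Cold (-1.72 ± 0.25, adjusted p = 0.00166). Psat1, the next enzyme, fell from 504, 659.8 and 563 to 321, 269 and 169 (-1.22), and was -0.96 without library C of GCN2 KO Cold, its lowest library. Psph, the last step of serine synthesis, had -0.90 (adjusted p = 0.00111), short of the fold threshold. Chac1, which degrades glutathione, had 67, 69.5 and 160.5 against 230.5, 210.2 and 180.1 (-1.17, adjusted p = 0.0245), and Pycr1, which makes proline, 7.82, 20.6 and 16.2 against 35.8, 43.6 and 38.1 (-1.43, adjusted p = 0.0222). Both missed the adjusted p in several refits. Chac1 was -0.95 and -0.98 without libraries A and B of GCN2 KO Cold and -1.09 and -1.16 without libraries A and B of WT RT (adjusted p = 0.0606 to 0.0824), and Pycr1 was -1.49, -1.35 and -1.45 without libraries A, B and C of WT RT (0.0567 to 0.076). In WT Cold the log2 fold changes were -0.96 for Phgdh, -0.56 for Psat1, -0.10 for Chac1 and -0.85 for Pycr1. Between the cold groups, 0 genes of the list passed an adjusted p of 0.05 with limma, and at an unadjusted p under 0.05 there were 6 of 35, beside 15.3% of all genes. The median of GCN2 KO Cold minus WT Cold was -0.19, with 29 genes below 0 and 6 above.

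The composite element recognised by ATF4, TGATGNAA or TTNCATCA on the other strand, was present upstream of 2.47% of all genes with a promoter entry and of 2 of the 4 genes that fell, Chac1 and Pycr1. Their stretches are shown because both are ATF4 targets that were lower in GCN2 KO Cold, and capitals mark the element. They lie at chr2:119351009-119351096 on the plus strand and chr11:120643804-120643891 on the minus strand of GRCm38.p6.
Chac1: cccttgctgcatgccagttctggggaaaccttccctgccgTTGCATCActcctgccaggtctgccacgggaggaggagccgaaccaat
Pycr1: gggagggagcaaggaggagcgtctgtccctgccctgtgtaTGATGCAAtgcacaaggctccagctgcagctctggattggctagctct

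Amino acid transporters of the plasma membrane and lysosome were 33 in number, of which 4 were called higher and 2 lower (median 0.08, or -0.12 under library totals), beside 5 and 1 in WT Cold (median 0.22). Slc7a8, the light chain of a carrier of large neutral amino acids, had 343, 503 and 428 normalized counts in WT RT and 1677, 3227 and 2083 in GCN2 KO Cold (2.41 ± 0.23, adjusted p = 0.000324). Slc3a2, the heavy chain with which it pairs, rose from 1992, 3009 and 2231 to 4926, 6333 and 6952 (1.34). Slc43a2, another carrier of large neutral amino acids, had 1.58 and Slc7a6, a light chain for cationic and neutral amino acids, 1.20. Lower were Slc38a10, from 3968, 5378 and 6522 to 1743, 1680 and 1642 (-1.62), and Slc43a1, from 357, 279 and 278 to 137, 186 and 121 (-1.05), the latter not called without library C of GCN2 KO Cold (-0.92) or library A of WT RT (-0.93). Slc38a10 had the same fall in WT Cold (-1.63), while Slc43a1 had 0.14 there. Slc38a2, the ATF4-responsive carrier of small neutral amino acids, had 0.73 in GCN2 KO Cold and 1.12 in WT Cold, and Slc7a5, the other light chain for large neutral amino acids, -0.28 and 0.83. The differences between the cold groups were -1.20 for Slc43a1, -0.39 for Slc38a2 and -1.12 for Slc7a5, and none passed (adjusted p = 0.0661, 0.186 and 0.0896).

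**Figure D3:**
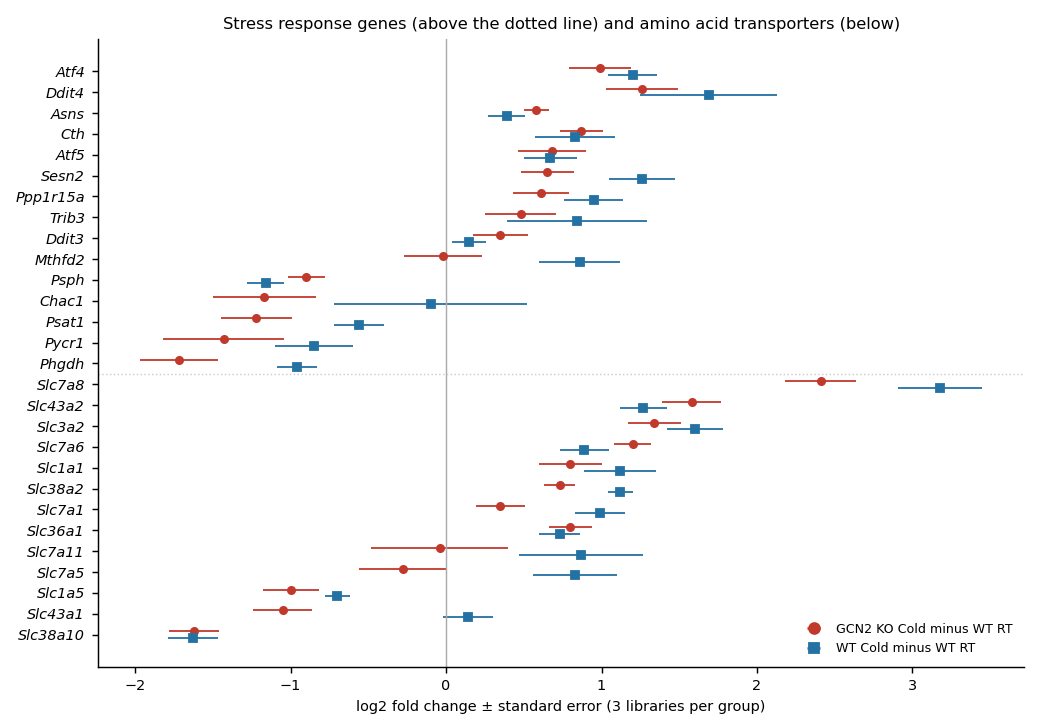
The log2 fold change with its standard error (horizontal axis) of 15 stress response genes, above the dotted line, and 13 amino acid transporters, below it, in GCN2 KO Cold minus WT RT (red circles) and WT Cold minus WT RT (blue squares), with 3 libraries per group and the WT RT libraries shared by both contrasts. Slc7a8, Slc43a2, Slc3a2 and Slc7a6 lie above 0 in both contrasts, while Slc43a1 lies at -1.05 in GCN2 KO Cold and 0.14 in WT Cold.

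Clock genes moved in opposing directions. The circadian clock is a loop in which BMAL1 (Arntl) and CLOCK drive the Per and Cry repressors and the Rev-erb receptors, which repress Arntl in turn. Of 19 genes, 6 were called higher and 3 lower (median 0.02), beside 5 and 3 in WT Cold. Arntl rose from 119, 169 and 143 normalized counts in WT RT to 477, 581 and 345 in GCN2 KO Cold (1.68 ± 0.22, adjusted p = 0.000982), and the repressor Nfil3 from 311, 278 and 412 to 1345, 1636 and 1430 (2.15). Per2 and Cry1 had 1.66 and 1.60, and Ciart, another repressor of the loop, 1.13, which was 0.91 without library B of WT RT and 0.93 under library totals. Per1, described above, was the sixth. Nr1d1 (Rev-erb alpha) fell from 3983, 3179 and 4259 to 1113, 945 and 1157 (-1.82 ± 0.13, adjusted p = 9.97e-05). Dbp and Bhlhe40, the other falls, had -1.11 and -1.19, and Dbp was -0.85 without library A of WT RT, its highest library. Mice of all groups were killed at the same time of day according to the study's methods.

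The E-box CACGTG, the same on both strands and the site of CLOCK and BMAL1, was present upstream of 9.37% of all genes with a promoter entry. Of the 5 clock genes called higher that had an entry, 3 held it, Per1, Cry1 and Ciart. The falls Nr1d1 and Dbp had an entry and did not hold it. The stretches of Per1 (chr11:69098753-69098818, plus strand) and Cry1 (chr10:85185079-85185144, minus strand) are shown because both repressors rose together, with the E-box in capitals.
Per1: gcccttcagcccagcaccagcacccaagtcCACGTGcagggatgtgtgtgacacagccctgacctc
Cry1: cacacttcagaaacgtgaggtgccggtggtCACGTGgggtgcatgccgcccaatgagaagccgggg

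Of the 43 lists, genes induced by type I interferon had the median farthest from 0. Of 40 tested, 38 were called lower and 1 higher, with a median log2 fold change of -2.56, beside 37 and 0 in WT Cold (median -2.30). The lower count was 37 or 38 with each library left out and 38 under library totals. Ifit1, which binds foreign RNA, had 1116, 1456 and 697 normalized counts in WT RT libraries A to C and 148, 164 and 148 in GCN2 KO Cold (-2.76 ± 0.24, adjusted p = 0.00022). Isg15, a ubiquitin-like modifier, fell from 1011, 1842 and 760.2 to 166, 197 and 174 (-2.64), and Irf7, the transcription factor that amplifies interferon production, from 2229, 4142 and 1580 to 469, 394 and 409.8 (-2.53). The 3 GCN2 KO Cold libraries lay close together for these genes and the WT RT libraries did not, with library B of WT RT the highest for all 3. The list median of single libraries, relative to the WT RT mean, was -0.11, 0.61 and -0.50 in WT RT libraries A, B and C and -2.62, -2.49 and -2.55 in GCN2 KO Cold. Oas3, Usp18 and Ifi44 had log2 fold changes of -3.09, -3.24 and -3.59. Ifi27l2a was the exception called higher, from 6495, 6755 and 5399 to 11023, 13519 and 18276 (1.17), though it was 0.98 without library C of GCN2 KO Cold and 0.97 under library totals, and Isg20 did not pass (adjusted p = 0.39).

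Genes of the interferon gamma response fell with them. Of 21 tested, 17 were called lower and 0 higher (median -1.50), beside 16 and 0 in WT Cold (median -1.56). Gbp3, a guanylate-binding protein that attacks intracellular pathogens, fell from 1865, 2266 and 1525 normalized counts to 247, 359 and 259 (-2.71 ± 0.18, adjusted p = 9.62e-05), and Gbp9 from 811, 981 and 801 to 164, 205 and 195 (-2.19). Cxcl10, a chemokine for T cells, had 251, 723 and 186 in WT RT and 23.5, 48.9 and 39.3 in GCN2 KO Cold (-3.15). Irf1, the regulator at the head of this response, had -0.49 (adjusted p = 0.036) and was short of the fold threshold. Between GCN2 KO Cold and WT Cold, 0 genes of either interferon list passed an adjusted p of 0.05 with limma, and 6 type I and 0 interferon gamma genes had an unadjusted p under 0.05, beside 15.3% of all genes.

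The core of the interferon-stimulated response element, GAAANNGAA or TTCNNTTTC on the other strand, was searched in the same upstream windows. It was present for 7.76% of all genes with a promoter entry, 9.97% of those called higher and 13.5% of those called lower. Among listed genes that fell, 16 of 28 type I interferon genes with an entry held it (57.1%), as did all 11 interferon gamma genes with one, lists that were drawn up from known interferon targets. The stretches below are shown because these genes are named examples of the interferon lists, and capitals mark the matches, which run together where they overlap. They lie at chr19:34640755-34640838 (Ifit1, plus), chr19:34583349-34583460 (Ifit3, plus), chr4:156200851-156200921 (Isg15, minus), chr5:120777695-120777759 (Oas3, minus), chr3:142559975-142560039 (Gbp3, plus) and chr5:92349069-92349127 (Cxcl10, minus) of GRCm38.p6.
Ifit1: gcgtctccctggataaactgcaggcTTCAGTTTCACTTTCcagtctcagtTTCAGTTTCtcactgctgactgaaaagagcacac
Ifit3: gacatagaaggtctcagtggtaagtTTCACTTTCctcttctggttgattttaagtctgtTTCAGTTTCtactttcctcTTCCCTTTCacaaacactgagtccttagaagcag
Isg15: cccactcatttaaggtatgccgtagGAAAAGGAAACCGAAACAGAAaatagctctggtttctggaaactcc
Oas3: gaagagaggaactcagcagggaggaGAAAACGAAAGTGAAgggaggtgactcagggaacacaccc
Gbp3: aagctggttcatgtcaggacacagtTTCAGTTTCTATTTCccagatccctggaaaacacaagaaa
Cxcl10: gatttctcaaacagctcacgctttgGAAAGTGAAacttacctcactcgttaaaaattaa
Ifit1, Ifit3 and Isg15 held 3 matches each, Oas3 and Gbp3 2, and Cxcl10 1.

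Antigen presentation fell in part. Of 20 genes, 9 were called lower and 0 higher (median -0.91). Tap1, the peptide transporter, fell from 1019, 1312 and 881 normalized counts to 280.5, 259 and 217 (-2.07) and the class I gene H2-Q7 from 582, 878 and 707 to 134, 227 and 201 (-1.96). H2-K1, a classical class I heavy chain, went the other way, with 25898, 28511 and 23421 in GCN2 KO Cold against 14995, 15952 and 12924 in WT RT (0.83, adjusted p = 0.00109), while in WT Cold it had -0.71, and the cold groups differed by 1.54 (adjusted p = 0.00842). H2-T22 fell in both cold groups, with log2 fold changes of -1.97 and -0.85, and differed between them by -1.12 (adjusted p = 0.0295). H2-D1 and B2m, the class I light chain, had -0.11 and -0.44.

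Part of the chemokines and of the myeloid cell markers were lower too. In bulk tissue, fewer cells of a type and less RNA per cell cannot be told apart. Of 26 chemokines and receptors, 11 were called lower and 3 higher (median -0.70), beside 7 and 2 in WT Cold (median -0.27), and 7 were lower without library B of WT RT. Ccl2, which recruits monocytes, had 218, 893 and 324 normalized counts in WT RT and 76, 55.4 and 67 in GCN2 KO Cold (-2.58 ± 0.45), and its receptor Ccr2 687, 1521 and 578 and 80.5, 151 and 75 (-3.11). Ccl8, another ligand for monocytes, had -3.20. The rises were Ackr3, a scavenging receptor, from 1517, 1641 and 1744 to 4483, 4353 and 5698 (1.56), Cxcl14 (1.10, or 0.9 without library B of GCN2 KO Cold) and Ccl17 (1.62). Ccl17 lost its call in several refits, among them those without library B of GCN2 KO Cold (1.19), library C of GCN2 KO Cold (1.79, adjusted p = 0.0593) and library A or B of WT RT (1.67 and 1.32).

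Of 13 macrophage markers, 8 were called lower and 0 higher (median -1.12), with 3 lower in WT Cold (median -0.65), and the count was 5 without library A of WT RT. Their summed level was 4920 to 6780 normalized counts in GCN2 KO Cold and 9620 to 13100 in WT RT. Cd68, a lysosomal protein of macrophages, fell from 974, 1788 and 843 to 113, 217 and 180.1 (-2.78), Adgre1 (F4/80) from 831, 858 and 659.9 to 105, 258 and 178 (-2.20), and Csf1r, the receptor on which macrophages depend, from 1190, 994 and 955 to 356, 526 and 372 (-1.34). The markers did not move as one, since Cd163, a scavenger receptor of resident macrophages, had 0.28 (adjusted p = 0.446) and Mertk, a receptor for dying cells, 0.38 (adjusted p = 0.0282). Of 9 monocyte markers, 6 were called lower (median -1.97), with a summed level of 2010 to 3110 against 4000 to 9560. T cell markers were low in both groups, with 13.4, 12 and 9.24 normalized counts of Cd3e in GCN2 KO Cold and 18.3, 17.1 and 9.28 in WT RT. Of 14 T and NK cell markers 3 were lower, of 10 B cell markers 0 were called by limma, and of 7 neutrophil and 7 dendritic cell markers 2 each were lower. Leaving out library B of WT RT left 1 T and NK cell, 1 neutrophil and 0 dendritic cell markers called lower. The macrophage and monocyte markers moved with the interferon genes, and their part in that fall was not tested.

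**Figure D4:**
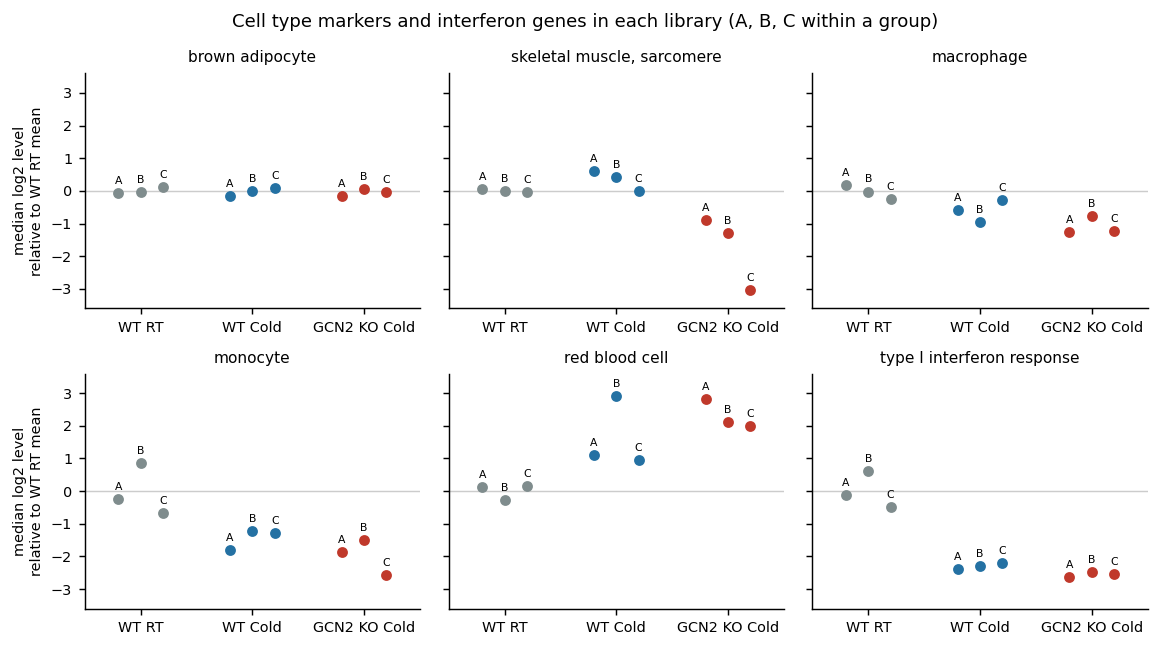
Median log2 level of 6 gene lists in each of the 9 libraries (A, B and C within a group) relative to the WT RT mean, on the vertical axis, for WT RT (grey), WT Cold (blue) and GCN2 KO Cold (red). Brown adipocyte markers lie between -0.17 and 0.13 in all libraries, sarcomere genes are lowest in GCN2 KO Cold library C (-3.05), and type I interferon genes lie between -2.62 and -2.20 in all 6 cold libraries.

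Skeletal muscle transcripts were lower in GCN2 KO Cold. Of 26 sarcomere genes, 25 were called lower and 0 higher (median -1.73), whereas in WT Cold 5 were called higher and 0 lower (median 0.31), or 8 and 0 without library C of WT Cold (median 0.53). Acta1, skeletal muscle actin, had 9638, 7921 and 2298 normalized counts in GCN2 KO Cold libraries A to C and 19669, 18950 and 18761 in WT RT (-1.77 ± 0.45, adjusted p = 0.0177), and Myh7, slow myosin heavy chain, 569, 322 and 126 and 1185, 1550 and 1697 (-2.36 ± 0.46). Library C was the lowest and library A the highest of the 3 for both genes. The summed level of the 26 genes was 45300, 35600 and 11400 in the GCN2 KO Cold libraries and 80500 to 89700 in WT RT. The number called was 18 without library C of GCN2 KO Cold (median -1.12), 23 and 26 without B and A, and 12, 14 and 15 without libraries A, B and C of WT RT, with 20 under edgeR and 19 under DESeq2. Acta1 missed the adjusted p without library A of WT RT (-1.75, adjusted p = 0.0558). Of 17 muscle genes outside the sarcomere, 12 were called lower, 7 without library C of GCN2 KO Cold and 4 or 5 without a WT RT library. Ckm, muscle creatine kinase, had -1.61 (adjusted p = 0.0401) and was -0.91 without library C of GCN2 KO Cold.

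Red blood cell transcripts were higher, with 5 of 5 called (median 2.31) and 5 of 5 also called in WT Cold (median 1.64). Hbb-bs, a beta globin, had 4546, 3505 and 4781 normalized counts in WT RT and 35098, 20152 and 17972 in GCN2 KO Cold (2.46 ± 0.24, adjusted p = 0.000317), and Alas2, the heme synthesis enzyme of red cells, 285, 189 and 265 and 1353, 833 and 498 (1.76). None of the markers of endothelial cells (13), fibroblasts (9), mural cells (10) or Schwann cells (8) was called by limma, and 7 endothelial, 5 fibroblast, 2 mural and 2 Schwann cell markers passed the adjusted p alone (34.2% of all genes did), with 8, 7, 2 and 3 at an unadjusted p under 0.05. The 5 fibroblast markers were all lower, and the median of that list was -0.65. With 1 library left out, 3 mural markers were called higher (without library A of WT RT) or 1 lower (without B), and 1 Schwann cell marker was called higher without library C of either group. Of 7 white adipocyte markers 3 were called lower, Nnat from 1282, 1473 and 1571 to 406, 309 and 151 (-2.43), Hoxc8 (-1.15) and Mest (-1.17). Lep, which encodes leptin, had 276, 285 and 55.4 in GCN2 KO Cold and 263, 520.5 and 812 in WT RT (-1.55, adjusted p = 0.0957), and the groups overlapped.

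Matrix genes fell in part. Of 28 collagens and matrix genes, 9 were called lower and 0 higher (median -0.75), with 18 lower and 2 higher at an adjusted p under 0.05 (17.8% and 16.4% of all genes), beside 2 and 0 in WT Cold (median -0.38). Col5a3 fell from 1827, 3244 and 2857 normalized counts to 549, 583 and 532 (-2.21 ± 0.19, adjusted p = 0.000219) and Col15a1, a basement membrane collagen, from 1732, 1727 and 1935 to 482, 439 and 341 (-2.11). Col3a1, a fibrillar collagen, and Fbn1, fibrillin, had -1.08 and -1.39, Col1a1 was short of the fold threshold at -0.73, and Col4a1, of the basement membrane, was higher at an adjusted p of 0.0105 with 0.41. Between the cold groups, 0 members passed an adjusted p of 0.05 with limma, and at an unadjusted p under 0.05 there were 17 (median difference -0.35), beside 15.3% of all genes. All 9 fibroblast markers had log2 fold changes below 0 in GCN2 KO Cold against WT RT, and their part in the fall of matrix genes was not tested. Of 31 cell cycle genes 2 were called lower, Bub1b (-1.33) and Mcm5 (-1.02), and the number was 4 without library C of GCN2 KO Cold and 0 without library B of WT RT. Both were -0.96 without library B of GCN2 KO Cold, and without library B of WT RT Bub1b missed the adjusted p (-1.24, adjusted p = 0.0704) and Mcm5 was -0.79.

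Chaperones and secreted factors completed the lists. Of 20 chaperones of the endoplasmic reticulum, Manf, a secreted stress factor, was the one called higher (1.05), and it was 0.88 without library C of GCN2 KO Cold, 0.99 without library A of WT RT and 0.85 under library totals. Hspa5 (BiP) had 0.38 (adjusted p = 0.0065). Of 16 heat shock and cold-inducible genes, Hspa8, the constitutive cytosolic HSP70, rose from 18551, 16755 and 21874 normalized counts to 59293, 49159 and 53392 (1.51 ± 0.12, adjusted p = 0.000163), and the mitochondrial co-chaperone Hspe1 had 1.18 (0.98 under library totals). They were the 2 called higher, and without library C of WT RT the number was 5. Cryab, a small heat shock protein abundant in muscle, fell from 2151, 2549 and 2131 to 1210, 996 and 798 (-1.20) and had 0.37 in WT Cold. The cold-inducible RNA-binding proteins Rbm3 and Cirbp had 0.47 (adjusted p = 0.0185) and -0.05 (0.711). Of 11 genes of creatine and calcium cycling, Ckb, brain-type creatine kinase, rose from 1648, 1347 and 1342 to 5878, 6536 and 9262 (2.30 ± 0.17) beside 2.17 in WT Cold, while Ckmt2, the mitochondrial creatine kinase of muscle, had -1.77 and missed the adjusted p without any 1 library of WT RT (adjusted p = 0.052 to 0.0736). Among 17 secreted factors, Apln, apelin, was lower (-1.64). Fgf21, a hormone induced by ATF4, had 20.1, 40.2 and 173 in GCN2 KO Cold libraries A to C and 27.9, 18.8 and 15.8 in WT RT and did not pass (adjusted p = 0.172), although DESeq2 (1.9) and the fit without library A of GCN2 KO Cold (1.99) called it higher, and library C alone was far above WT RT.

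Set side by side, GCN2 KO Cold and WT Cold had list medians of opposite sign against the same WT RT libraries for both skeletal muscle lists (-1.73 and 0.31 for the sarcomere, -1.64 and 0.29 outside it), cholesterol synthesis (0.26 and -0.29), glycolysis (0.01 and -0.11), neutrophil markers (-0.71 and 0.1) and Schwann cell markers (-0.02 and 0.57), and medians that round to 0 in GCN2 KO Cold for acyl-CoA thioesterases and mural cell markers. Because both contrasts share the WT RT libraries, no overlap or correlation between them is given, and the difference was tested in the table that holds both cold groups. There, 42 of 16312 genes were called (0.257%), 10 higher (0.0613%) and 32 lower (0.196%) in GCN2 KO Cold, and 66 passed the adjusted p alone, with 2500 (15.3%) at an unadjusted p under 0.05. Of the genes described above, Gchfr, Eif3j2 and H2-K1 were the called genes higher in GCN2 KO Cold, and the called genes lower there were Dusp4, H2-T22, Cryab and muscle markers that include Myh7, at -3.34 (adjusted p = 0.0483). These calls were sensitive to single libraries: 3 to 10 genes were called higher and 0 to 12 lower with each library left out in turn, with 10 and 12 without library C of WT Cold and 7 and 6 without library C of GCN2 KO Cold. For lipid uptake, triglyceride resynthesis, amino acid transporters and the clock, 0 genes passed an adjusted p of 0.05 between the cold groups with limma. At an unadjusted p under 0.05 there were 6 of 16, 6 of 16, 11 of 33 and 4 of 19, beside 15.3% of all genes. For the muscle lists, 4 of 26 sarcomere genes and 1 of 17 others passed the adjusted p, 26 and 15 had an unadjusted p under 0.05, and the median differences were -2.09 and -1.94. With 3 libraries per group, a difference that misses this threshold does not show that the groups respond alike.

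**Figure D5:**
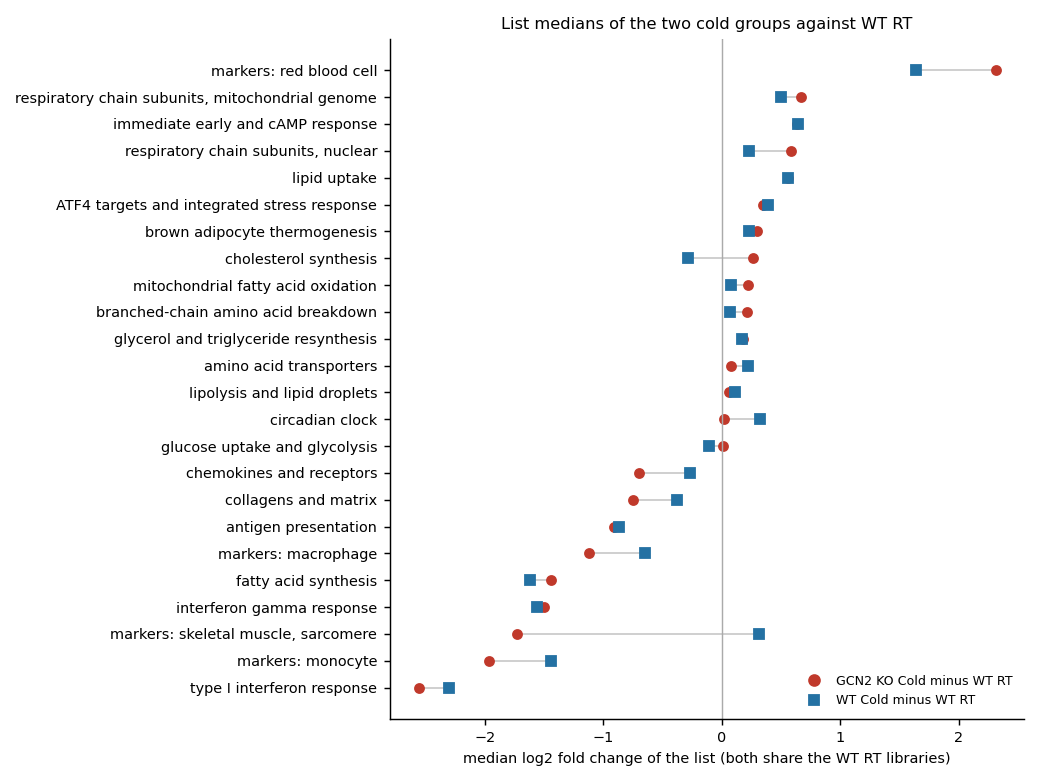
Median log2 fold change of 24 gene lists (horizontal axis) in GCN2 KO Cold minus WT RT (red circles) and WT Cold minus WT RT (blue squares), which share the WT RT libraries, with a grey line joining the 2 medians of each list. Sarcomere genes have medians of -1.73 and 0.31 and cholesterol synthesis 0.26 and -0.29, while type I interferon genes have -2.56 and -2.30.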

How the data were processed

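RNA from brown adipose tissue was sequenced in 3 libraries per group, which the labels call biological replicates. Per the labels, the authors' processing notes name Trimmomatic 0.36, STAR 2.5.2b, featureCounts of Subread 1.5.2, DESeq2 and the genome build GRCm39. For each pair of groups the authors deposited a table whose signal per gene and library is its reads over a size factor, with their own log2 fold changes and p-values, which were not used. Within a library every value was a whole multiple of 1 step (tolerance 0.001 reads), so whole reads were recovered for 100% of values. Columns from other samples numbered 0, and 16 listed genes have no name. Columns carry no mouse number, and p-values measure the spread between these libraries. Depth was 27056681 to 30765136 reads per library.

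The main test was limma 3.58.1 (R 4.3.3) with a mean-variance trend on log2(normalized count + 1) in the 2 groups of a table, with Benjamini-Hochberg adjustment over all its genes. Fold changes on this scale understate the change of low genes. The study used DESeq2 with the same thresholds. DESeq2 1.42.0 and edgeR 4.0.16 were run on the recovered reads as alternatives. All these tools were also run on simulated counts, and no conclusion here is drawn from that run. List medians by library and summed levels use reads scaled over all 9 libraries. Other alternatives were 2 pseudocounts (0.1 and 5), a mean normalized count of at least 20, library totals, TMM, 3 groups in the fit, no trend, other thresholds and each library left out. Leaving out each library of the comparisons that hold WT Cold was added after seeing the data.

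The comparison, the 43 gene lists and the tests were chosen with earlier results of these data known, so no test over a list is given. Named genes are Eif2ak4, the 12 largest rises and falls among called genes that averaged at least 50 normalized counts, and list members, with the largest called changes and textbook members as examples. Promoter sequences are from RefSeq (GRCm38.p6) and were matched by symbol for 11881 of 16533 symbols; a gene with several listed promoters holds a motif if any of them does. The values of 6 list members are not reported here and are left out of the genes compared between the cold groups, while list counts include them. Coordinates are those of the promoter table, and isoforms were not used here.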

Additional observations from a re-analysis of the deposited data

Results flagged for a closer look

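The response of GCN2 KO Cold was set against that of WT Cold, and 13 of the 789 list and named genes reported here differed between the cold groups at an adjusted p under 0.05 (limma over all genes of that table, 3 libraries per group). Values are log2 GCN2 KO Cold minus WT Cold. With each library left out in turn, all 13 kept their direction and 1, Eif3j2, passed the adjusted p every time. Gchfr and H2-K1 missed it without library B of GCN2 KO Cold and without library B of WT Cold (0.0508 to 0.0831), and the other 10 missed it in at least 5 of the 6 refits.

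Higher in GCN2 KO Cold were 5 of them. Gchfr differed by 4.46 (adjusted p = 0.00842) and Eif3j2 by 3.72 (0.000323). The class I gene H2-K1 differed by 1.54 (0.00842), having moved in opposite directions from WT RT in the cold groups. The lipogenic gene Thrsp differed by 0.79 (0.0439) and Acat2 by 0.64 (0.0461), and both were below WT RT in both cold groups.

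Lower in GCN2 KO Cold were 8 of these genes. Of them, 5 are skeletal muscle markers, namely Myh7 (-3.34, adjusted p = 0.0483), Tnnc1 (-3.05, 0.0439), Sln (-2.96, 0.0335), Csrp3 (-2.85, 0.0483) and Tnni1 (-2.31, 0.0421), which are genes of slow muscle fibres or of the sarcomere and its calcium handling. The small heat shock protein gene Cryab differed by -1.57 (0.0439). The other 2 were the class I gene H2-T22 (-1.12, 0.0295) and the phosphatase Dusp4 (-1.03, 0.0295). Summed sarcomere levels were 11400 to 45300 in GCN2 KO Cold and 79100 to 125000 in WT Cold, with library C of GCN2 KO Cold the lowest, and the part of differing muscle content in these values was not tested.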

How the results depend on the processing

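The count of 499 genes called higher became 326 when libraries were scaled to their totals, all among the 499, while the 1255 called lower became 1769. Without a fold change threshold the counts were 2713 higher and 2944 lower, and at an adjusted p under 0.01, 828 were lower. edgeR gave 480 and 1292 and DESeq2 508 and 1224, of which 464 and 1228, and 472 and 1173, were among the reported calls. Leaving out 1 library gave 455 to 585 higher and 959 to 1290 lower. Chosen after seeing the data, the same for GCN2 KO Cold against WT Cold (10 and 32 as reported) gave 3 to 10 higher and 0 to 12 lower, and for WT Cold against WT RT (498 and 859) 404 to 697 and 658 to 1157. Among the 174 named genes, Eif2ak4, which was not called, turned direction under library totals (-0.01). Of the 132 called named genes, 127 were also called by edgeR and DESeq2, 112 under library totals, 100 with each library left out, and 94 in all 15 refits. Of 86 list counts, 19 moved by over 1.5 times under library totals, 14 without library A and 14 without library B of WT RT, and 11 without library C of GCN2 KO Cold. No paired analysis was possible because the columns carry no replicate numbers. Depth limits genes near 61 reads, and 3 libraries per group limit the rest.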
